A study of Homo sapiens with 6 samples.

Results

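The genes described here encode the COPI and COPII vesicle coats, their GTPases and regulators, and the cargo receptors that travel between the endoplasmic reticulum (ER) and the Golgi apparatus. They are 46 of the 28862 genes listed, chosen by symbol and not by a cut on any measured value, though with earlier results of these data known. All 46 passed the filter on low counts, so each was tested among 15829 genes. Messenger RNA was sequenced from SH-SY5Y, a human neuroblastoma cell line. One group of 3 libraries came from cells given a control plasmid and the other group of 3 from cells labelled as overexpressing SMN1, with no time point, dose or vector given in the sources used here. The libraries of the second group are called the SMN1-labelled libraries, because the level of SMN1 went against the label: 20.0, 20.4 and 19.6 CPM against 14.8, 16.6 and 16.6 (log2 difference -0.32 with SE 0.061, edgeR adjusted p = 9.40e-05). SMN2, its near-identical copy, with which reads could be split, fell from 9.40 ± 0.358 to 7.63 ± 0.427 CPM (log2 difference -0.30, edgeR adjusted p = 0.0031). CPM are reads scaled to library size with TMM factors, log2 differences are log2 fold changes, and a positive value is a higher level under the SMN1 label. Errors are SDs over n = 3 libraries. Separate cultures are not named for them, and p-values then rest on the spread among these libraries alone, which may be technical.

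Proteins made at the ER leave it in vesicles coated with COPII. The GTPase SAR1, activated by PREB (SEC12), recruits the inner coat of SEC23 and SEC24, of which SEC24 binds cargo, and the outer coat of SEC13 and SEC31 then bends the membrane. COPI, a complex of the coatomer subunits recruited by ARF1, carries escaped ER residents and recycling receptors back from the Golgi. Transmembrane receptors of the p24 (TMED) family, lectins such as LMAN1, and the KDEL receptors select what goes forward and what is returned, and neurons depend on this traffic for membrane and secreted proteins along long processes.

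The libraries held 30379242 to 40275498 reads assigned to genes. Of 11 noradrenergic neuroblast markers 10 passed the filter, with summed levels of 5796 to 5968 CPM in the control and 5850.1 to 6092 CPM in the SMN1-labelled libraries, while TH, which encodes tyrosine hydroxylase, stayed under 1 CPM in every library. Of these 10 markers 4 were higher and 6 lower (edgeR adjusted p at most 0.05). Of all genes at 10 CPM or more in the control group, as these 10 were, 34.2% were higher and 36.9% lower. The 10 markers of the mesenchymal type of neuroblastoma cell summed to 1059 to 1100.4 and 746 to 813 CPM. Of them 8 were lower (80.0%, against 28.2% of all genes tested). TWIST1 made up most of the summed level, at 704 ± 17.7 CPM in the control and 565 ± 37.0 CPM in the SMN1-labelled libraries. It was called lower, but not after the length and GC correction described below (log2 difference -0.051, adjusted p = 0.262). The part of either marker list in the results below was not tested. Markers of other cell types summed to 20.5 to 21.6 CPM in controls and 8.80 to 9.19 CPM under the SMN1 label, and PTPRC, ALB, PECAM1, GFAP and MBP stayed under 1 CPM. SOX10 and HBB, also on this list of 10, were not among the genes listed. The remaining 3 were tested. The keratin genes KRT8 and KRT18 were lower (log2 differences down to -1.70), and EPCAM did not pass (-0.26, edgeR adjusted p = 0.162). These 2 calls are 66.7% of the 3, against 28.2% of all genes tested. In bulk RNA, fewer cells of a type and less RNA per cell cannot be told apart.

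More of the coat and cargo genes were higher than lower in the SMN1-labelled libraries. Of the 46 genes 23 rose, 12 fell and 11 did not pass (edgeR quasi-likelihood test, adjusted p at most 0.05), so that 76.1% were called against 56.2% of all genes tested. Their log2 differences ran from -0.50 to 0.69, with a median of 0.13. Over all genes tested 28.0% rose and 28.2% fell, with a median of 0.00087, and against these the shares here were 50.0% and 26.1%. These genes are well expressed, with a median of 54.6 CPM in the control group against 10.6 CPM over all genes tested, and well-expressed genes were called more often. At 10 CPM or more 75.0% were called, against 71.1% of all such genes: 16 of 36 rose (44.4%, against 34.2% of all such genes) and 11 fell (30.6%, against 36.9%). For 22 genes every SMN1-labelled library lay above every control library, and for 13 every one lay below, where 60.7% of all genes tested had groups apart, 30.4% and 30.2% in these directions. With DESeq2 21 genes rose and 11 fell, where 48.7% of all genes were called. On the deposited FPKM values, which are scaled by gene length and library depth, 24 were higher and 6 lower (limma on log2(FPKM + 0.1)), where 39.4% and 23.7% of all genes were. SEC24A, SAR1B, MIA2 and KDELR3, under 0.5 FPKM in both group means, were not tested on that scale. The FPKM values were not rescaled with TMM factors. Their median log2 difference over the 12711 genes kept was 0.087 on that scale, against 0.00087 on counts. FPKM levels compared between groups below were not adjusted for this shift. The counts by role given below are of 1 to 9 genes each and stand against the same shares over all genes. At 10 CPM or more 2 of 5 COPII coat genes rose and 1 fell, 3 of 5 initiation and exit site genes rose and 0 fell, and 4 of 8 COPI coat genes rose and 3 fell. Changes were small: 13 genes rose and 3 fell when a difference of at least 25% of the lower group's level was also required, 28.3% and 6.52% against 15.9% and 17.5% of all genes.

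**Figure D1:**
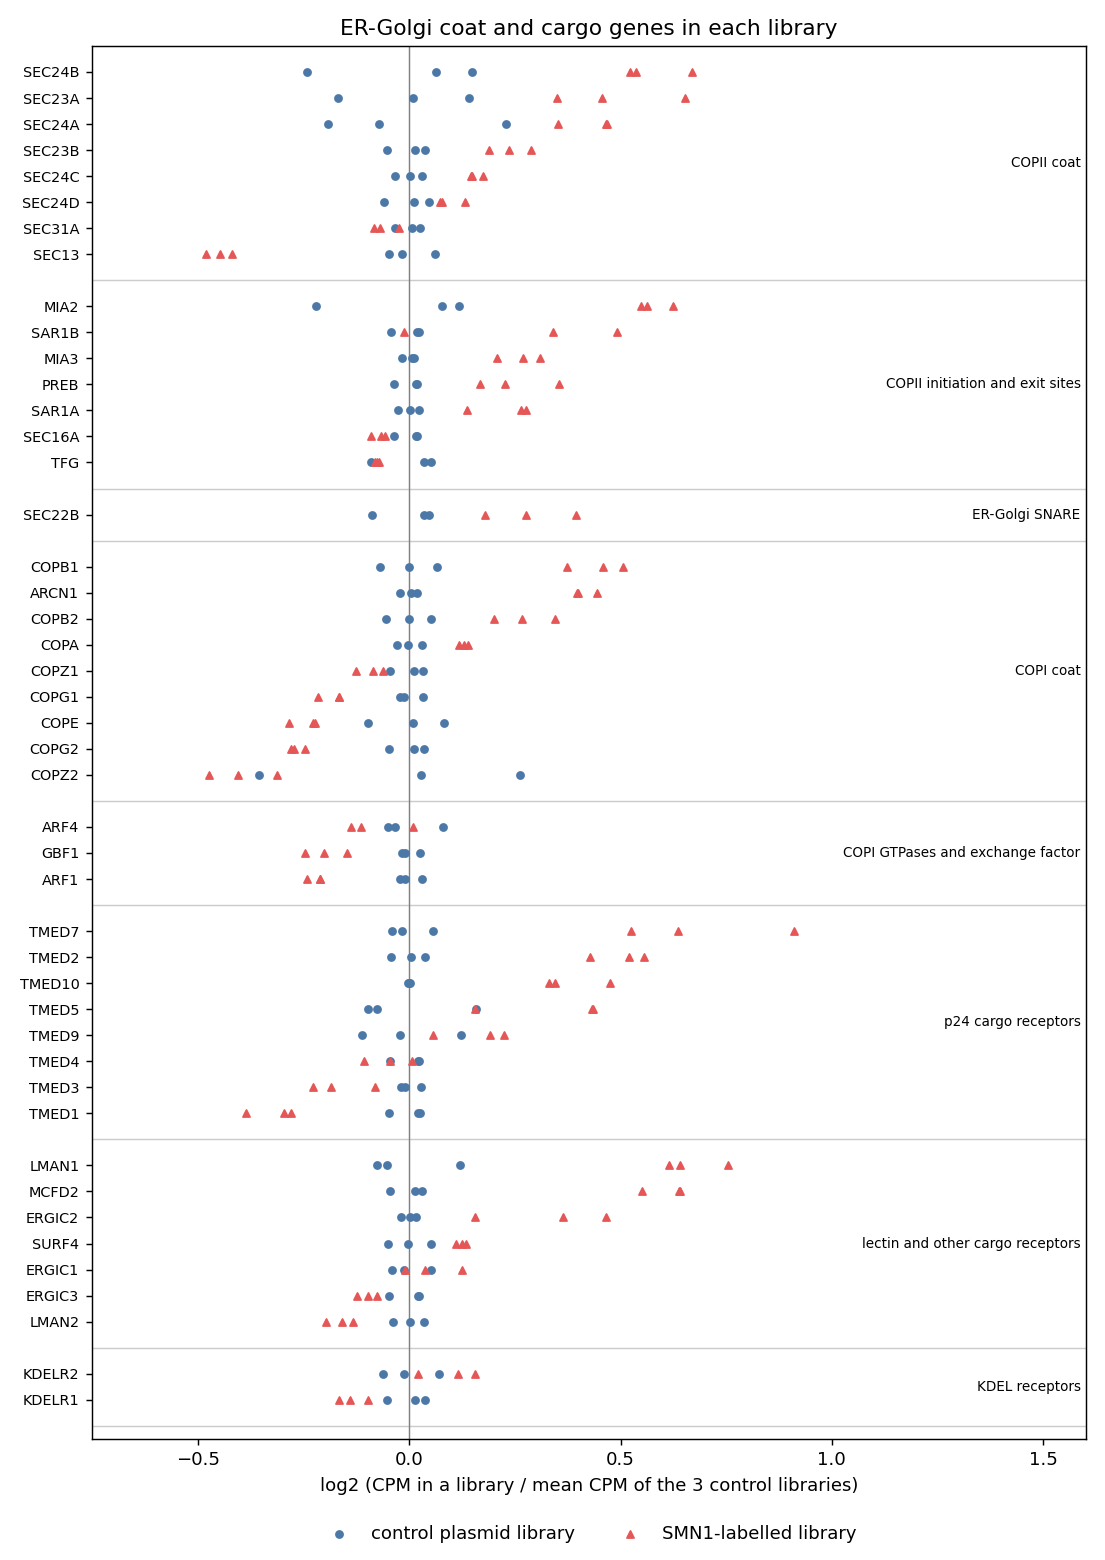
Level of each coat and cargo gene in each library, as the log2 ratio of its CPM to the mean of the 3 control libraries, grouped by role and ordered by fold change. Circles are control plasmid libraries and triangles SMN1-labelled libraries, and KDELR3, with 2 to 22 reads per library, is left out. LMAN1, MCFD2 and TMED2 lie well to the right of their controls and SEC13 well to the left, while COPI subunits lie on both sides.

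Fold change went with base composition in these libraries, in this group of genes as in the whole table. Across the 46 genes, which are not independent replicates and share the same 6 libraries, Spearman's rho between log2 fold change and GC content was -0.66, against -0.43 over 15663 genes. Of 23 coat and cargo genes under 45% GC 17 rose and 2 fell, and of the 23 at or above it 6 rose and 10 fell. Their median log2 differences were 0.35 and -0.092. Over all genes, in 10 equal bins by GC content, the median was 0.23 in the lowest bin and -0.25 in the highest. The shares of all genes called on either side of 45% were not counted. The median GC content was 45.2% here and 48.8% over all genes, and the median exonic length 5175 and 4575 nt. After smooth trends with length and GC content were removed from each library, 15 genes were higher and 10 lower (32.6% and 21.7%, against 22.6% and 25.0% of all genes, 47.7% being called either way), and the median was 0.0055. Of the 23 that rose 14 were still called higher, and of the 12 that fell 6 were still called lower. This correction is called the length and GC correction below and is given where it ended a call or turned a direction.

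**Figure D2:**
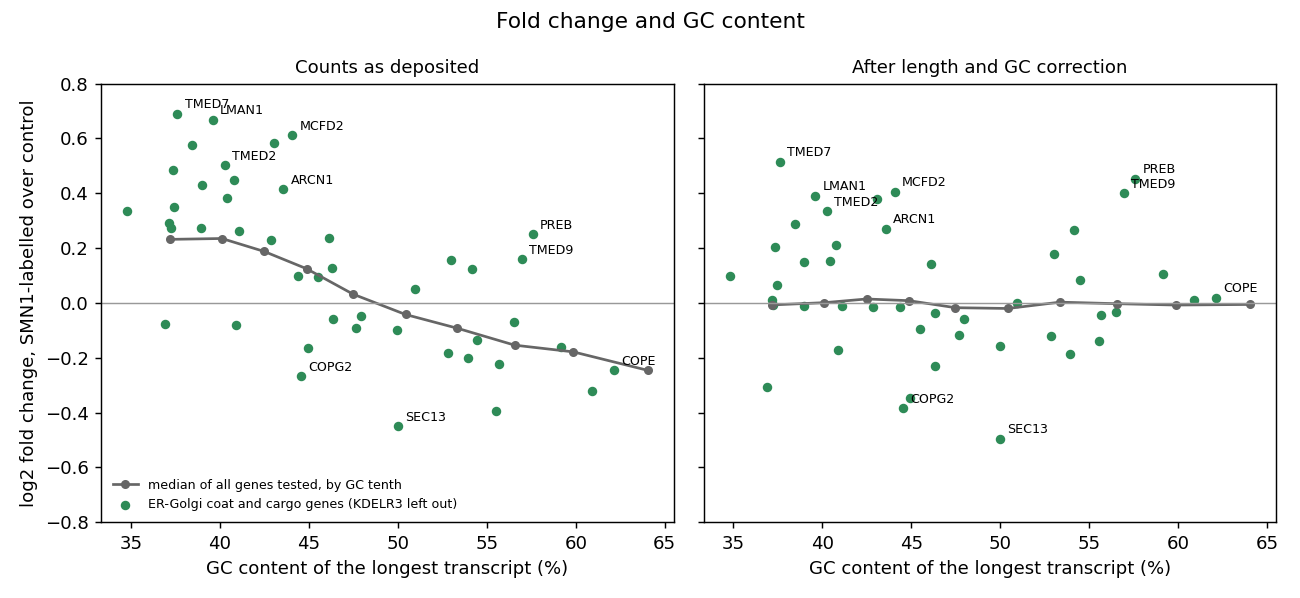
Log2 fold change (SMN1-labelled over control) against the GC content of each gene's longest annotated transcript in percent, for counts as deposited and after the length and GC correction. Green points are coat and cargo genes without KDELR3, and the grey line joins the medians of 10 equal bins of all genes tested by GC content. On the left the points follow the falling line, and on the right PREB and TMED9 stand above it and SEC13 and COPG2 below it.

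Within the COPII coat, 5 of 8 genes rose, all of them inner coat subunits, and the outer coat gene SEC13 fell. SEC13 (chromosome 3, 10293131 to 10321178, GRCh38) stood at 151, 139.8 and 143 CPM with the control plasmid and at 108, 103 and 106 CPM under the SMN1 label. The groups did not overlap, and the fall was 1.37-fold (log2 difference -0.45 with SE 0.037, edgeR adjusted p = 4.07e-10). SEC13 protein is shared between the COPII cage, the nuclear pore and a lysosomal signalling complex. SEC31A, its partner in the COPII cage, read 279.6, 276 and 269 CPM against 262, 259 and 270.3 and did not pass (log2 difference -0.059, edgeR adjusted p = 0.143), but was called lower after the length and GC correction (log2 difference -0.23, adjusted p = 3.17e-06) and had the opposite sign on FPKM values (0.029 on log2(FPKM + 0.1)). SEC24B, which encodes a cargo-binding subunit, read 6.59, 8.16 and 8.65 CPM against 11.2, 12.4 and 11.3, with no overlap (1.50-fold higher, log2 difference 0.58 with SE 0.089, edgeR adjusted p = 6.12e-06). SEC23B, the GTPase-activating inner coat subunit whose loss causes congenital dyserythropoietic anaemia, read 31.3, 29.9 and 31.8 CPM against 35.3, 36.5 and 37.8 and rose 1.18-fold (log2 difference 0.24, edgeR adjusted p = 0.000129). Its paralog SEC23A read 6.19, 7.01 and 7.69 CPM against 9.56, 8.87 and 11.0 and rose 1.40-fold (log2 difference 0.49, edgeR adjusted p = 0.000135), a call not made after the length and GC correction (log2 difference 0.20, adjusted p = 0.0776). All SMN1-labelled libraries lay above all control libraries for both SEC23 genes.

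The other SEC24 genes differed in size of change. SEC24C, by far the most abundant of the family, read 127, 124 and 129.8 CPM against 141, 143 and 141 and rose 1.11-fold (log2 difference 0.16, edgeR adjusted p = 0.00046). SEC24A, the least abundant, read 2.63, 1.97 and 2.14 CPM against 2.87, 3.10 and 3.10 (1.35-fold higher, log2 difference 0.43, edgeR adjusted p = 0.0137). Its call was not made with DESeq2 (adjusted p = 0.0504), without the second control library (0.0728) or after the length and GC correction (0.414), with a range of 0.00597 to 0.419 over the alternatives. SEC24D read 28.2, 28.8 and 26.8 CPM against 29.5, 30.6 and 29.4 and did not pass (log2 difference 0.095, edgeR adjusted p = 0.0994), though the groups did not overlap. It was called higher on log2(FPKM + 0.1) (limma adjusted p = 0.0192), and its sign turned after that correction (-0.095). On the FPKM scale, which allows levels of different genes to be compared, SEC24C made up 83.7% ± 0.623 of the summed FPKM of its family in controls, then 82.4% ± 0.366 under the SMN1 label. SEC24B made up 5.26% ± 0.695 of the summed FPKM of its family in controls, then 6.94% ± 0.289 under the SMN1 label, with no overlap between the groups. SEC23B likewise outweighed SEC23A, with 89.9% ± 0.927 of the summed FPKM of its family in controls, then 88.1% ± 0.871 under the SMN1 label.

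Upstream of the coat, 4 of 7 genes that start COPII assembly or organise ER exit sites rose and none fell. These were PREB, SAR1A, MIA3 and MIA2. MIA3 and MIA2 encode the TANGO1 and cTAGE5 proteins, which help load bulky cargo such as procollagen at exit sites. MIA3 read 163, 163 and 160.3 CPM against 188, 196 and 201 (1.20-fold higher, log2 difference 0.26 with SE 0.035, edgeR adjusted p = 9.18e-07) and MIA2 read 3.73, 3.83 and 3.03 CPM against 5.17, 5.22 and 5.45 (1.49-fold, log2 difference 0.58, edgeR adjusted p = 0.000147). PREB, the exchange factor that activates SAR1, read 63.8, 63.7 and 61.5 CPM against 80.5, 73.7 and 70.8 (1.19-fold, log2 difference 0.25 with SE 0.044, edgeR adjusted p = 3.62e-05). All 3 were apart from their controls in every library. After the length and GC correction the PREB difference was larger (log2 difference 0.45, adjusted p = 4.10e-09) and MIA3 was not called (log2 difference -0.012, adjusted p = 0.782).

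SAR1A, the major SAR1 gene, read 77.9, 76.3 and 79.0 CPM against 85.5, 93.5 and 94.2 (1.17-fold higher, log2 difference 0.23, edgeR adjusted p = 4.39e-05), and its sign turned after the correction (log2 difference -0.014, adjusted p = 0.793). SAR1B, mutated in chylomicron retention disease, read 3.30, 3.44 and 3.45 CPM against 4.30, 3.37 and 4.78 and did not pass (log2 difference 0.27, edgeR adjusted p = 0.0815). Its second SMN1-labelled library lay within the control range, and without that library it was called higher (log2 fold change 0.42, edgeR adjusted p = 0.0104). The exit site scaffold SEC16A (68.1, 70.6 and 70.7 CPM against 66.7, 65.6 and 67.1, log2 difference -0.071, edgeR adjusted p = 0.113) and TFG (33.6, 37.0 and 36.6 CPM against 34.0, 33.8 and 33.9, log2 difference -0.076, edgeR adjusted p = 0.175) did not pass either, although SEC16A was lower in every SMN1-labelled library. TFG was called lower after the correction (log2 difference -0.31, adjusted p = 6.17e-06), and on log2(FPKM + 0.1) its sign and that of SEC16A were positive (0.014 and 0.018). The SNARE gene SEC22B, whose product drives fusion of ER-derived vesicles, read 14.6, 16.0 and 15.9 CPM against 17.6, 20.4 and 18.8 and rose 1.22-fold (log2 difference 0.29, edgeR adjusted p = 0.000603), a call not made after the correction (log2 difference 0.0097, adjusted p = 0.912). Summed over the 7 initiation and exit site genes, the level per length, on FPKM as deposited, was 52.4 ± 0.904 FPKM in controls and 64.0 ± 0.187 FPKM under the SMN1 label.

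The coatomer subunits split: 4 of the 9 COPI coat genes rose, 4 fell and COPZ1 did not pass. The genes that rose encode alpha (COPA), beta (COPB1), beta prime (COPB2) and delta (ARCN1) subunits, and those that fell encode epsilon (COPE), both gamma forms (COPG1 and COPG2) and the second zeta form (COPZ2). ARCN1 (chromosome 11, 118572390 to 118603033) stood at 97.0, 96.0 and 94.3 CPM with the control plasmid and at 126, 126 and 130.3 CPM under the SMN1 label, a rise of 1.33-fold (log2 difference 0.41 with SE 0.035, edgeR adjusted p = 7.04e-10). COPB1 (chromosome 11, 14443440 to 14500027) stood at 29.9, 31.3 and 28.5 CPM with the control plasmid and at 38.7, 42.5 and 41.1 CPM under the SMN1 label, a rise of 1.36-fold (log2 difference 0.45 with SE 0.049, edgeR adjusted p = 4.03e-08). Neither gene had groups that overlapped. COPB2 read 143, 149 and 138 CPM against 165, 172 and 182 (1.21-fold, log2 difference 0.27, edgeR adjusted p = 2.83e-06). COPA read 186, 182 and 179 CPM against 199, 198 and 201 (1.09-fold, log2 difference 0.13, edgeR adjusted p = 0.00226). The signs of COPB2 and COPA turned after the length and GC correction (log2 fold changes -0.0082 and -0.038, adjusted p = 0.869 and 0.342), while ARCN1 and COPB1 were still called higher (0.27 and 0.21).

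COPE, the subunit gene with the highest level per length (96.9 ± 5.08 FPKM in the control libraries), read 307, 285 and 323 CPM against 260.3, 261 and 250.2 and fell 1.18-fold (log2 difference -0.24, edgeR adjusted p = 1.19e-05), with its sign turned after the length and GC correction (log2 difference 0.019, adjusted p = 0.713). COPG1, whose product links the coat to ARF1 and cargo tails, read 218, 209.9 and 211 CPM against 190.0, 184 and 189.8 and fell 1.14-fold (log2 difference -0.18 with SE 0.034, edgeR adjusted p = 7.26e-05), a call not made by limma on unfiltered log2(FPKM + 1) values (adjusted p = 0.0526). Its paralog COPG2 read 23.5, 24.9 and 24.5 CPM against 20.0, 20.1 and 20.5 and fell 1.20-fold (log2 difference -0.27 with SE 0.053, edgeR adjusted p = 0.000141). For COPE, COPG1 and COPG2 the groups were apart. COPZ1 stood at 41.9, 41.3 and 39.7 CPM against 39.3, 37.5 and 38.7 (log2 difference -0.092, edgeR adjusted p = 0.0739), and was called lower with upper-quartile factors (0.037), with the stricter filter (0.039) and after the length and GC correction (0.0222). The rarer COPZ2 read 3.93, 3.01 and 4.62 CPM against 2.78, 2.91 and 3.10, with overlap, and fell (log2 difference -0.39, edgeR adjusted p = 0.0217). Its call was not made without the first or the third control library (adjusted p = 0.0624 and 0.182), without the first or the second SMN1-labelled library (0.0616 and 0.0564) with DESeq2 (0.0523) or after the length and GC correction (log2 difference -0.14, adjusted p = 0.449), with a range of 0.00217 to 0.479 over the alternatives. The summed level of the coat per length, on FPKM as deposited, was close in both groups, 213 ± 4.67 FPKM in controls and 216 ± 0.698 FPKM under the SMN1 label.

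The GTPases and the exchange factor that recruit COPI were lower or did not pass. ARF1 read 202, 203 and 209 CPM against 177, 177 and 173, without overlap (1.17-fold lower, log2 difference -0.22 with SE 0.034, edgeR adjusted p = 5.52e-06), a call not made after the length and GC correction (log2 difference -0.046, adjusted p = 0.249). GBF1, the exchange factor that activates ARF1 at the early Golgi, read 41.1, 42.1 and 40.9 CPM against 37.4, 34.9 and 36.0 (1.15-fold lower, log2 difference -0.20, edgeR adjusted p = 0.000446), also without overlap, and was not called on FPKM values (adjusted p up to 0.243). ARF4, which can act beside ARF1 at the early Golgi, read 52.4, 53.0 and 57.2 CPM against 49.3, 50.1 and 54.5 and did not pass (log2 difference -0.080, edgeR adjusted p = 0.145). It was called lower without the third SMN1-labelled library (log2 fold change -0.12, edgeR adjusted p = 0.0329) and after the length and GC correction (log2 difference -0.17, adjusted p = 0.00203), and its sign turned on FPKM values (0.0082 on log2(FPKM + 0.1)).

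**Figure D3:**
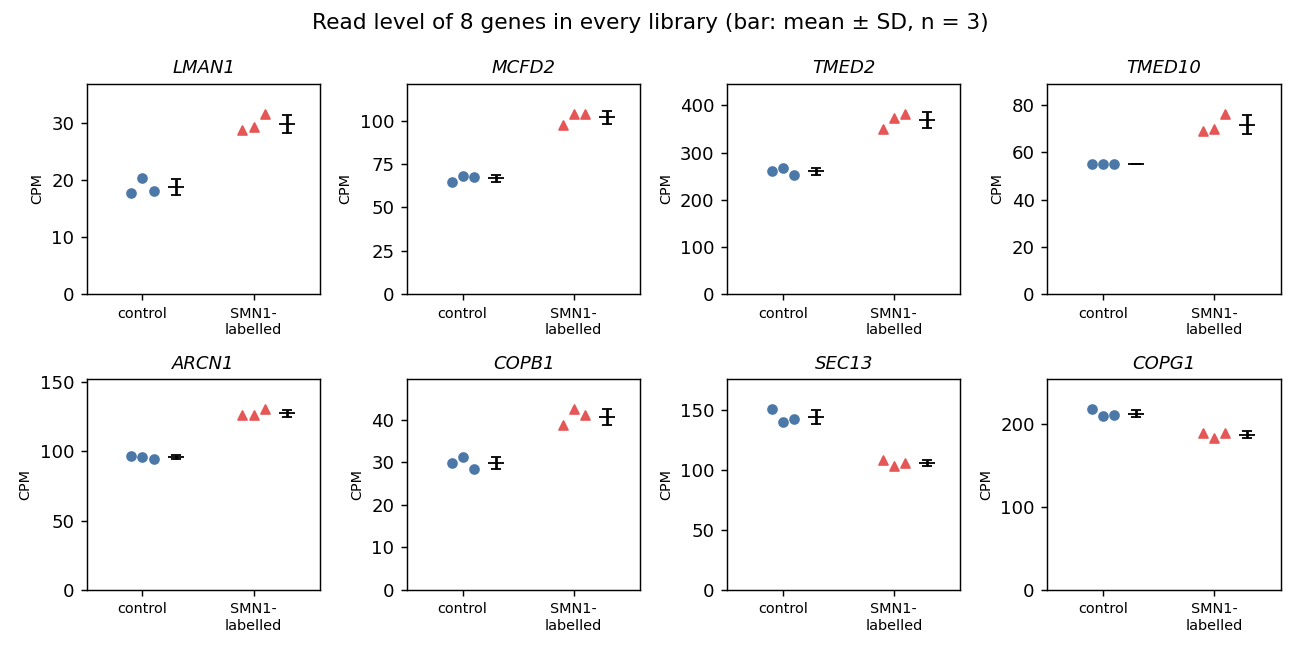
CPM in every library for 8 coat and cargo receptor genes, on linear axes that start at 0, with control plasmid libraries as circles, SMN1-labelled libraries as triangles and bars for mean ± SD (n = 3). LMAN1, MCFD2, TMED2, TMED10, ARCN1 and COPB1 were higher and SEC13 and COPG1 lower in all 3 SMN1-labelled libraries.

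Among the p24 family, 5 of 8 genes rose and 2 fell, where 28.0% and 28.2% of all genes tested did so. At 10 CPM or more 3 of 6 rose and 2 fell, where 34.2% and 36.9% of all such genes did so. The p24 proteins form hetero-oligomers that sort cargo such as GPI-anchored proteins into COPII vesicles and bind COPI through their tails. TMED2 (chromosome 12, 123584531 to 123598577) stood at 261, 267 and 253 CPM with the control plasmid and at 350.2, 373 and 382 CPM under the SMN1 label, a rise of 1.42-fold (log2 difference 0.50 with SE 0.037, edgeR adjusted p = 5.95e-11). TMED10 (chromosome 14, 75131470 to 75176631), which encodes its partner p23, stood at 55.0, 55.0 and 54.9 CPM with the control plasmid and at 69.1, 69.8 and 76.4 CPM under the SMN1 label, a rise of 1.31-fold (log2 difference 0.38 with SE 0.042, edgeR adjusted p = 4.74e-08). Neither gene's groups overlapped. TMED7, a gene of low level, read 2.03, 2.00 and 2.14 CPM against 3.20, 2.96 and 3.86 (1.61-fold higher, log2 difference 0.69 with SE 0.15, edgeR adjusted p = 0.000295). It had 61 to 62 reads in a control library, and it shares exons on the same strand with the readthrough gene TMED7-TICAM2, at 1.19 CPM with the control plasmid and 1.64 under the SMN1 label, so reads could be split between them.

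TMED5 (8.86, 10.4 and 8.72 CPM against 10.4, 12.6 and 12.6, log2 difference 0.35, edgeR adjusted p = 0.00165) and TMED9 (242, 228 and 268 CPM against 281, 287 and 256, log2 difference 0.16, edgeR adjusted p = 0.0064) rose with overlap between the groups. The TMED9 call was not made without the second control library (adjusted p = 0.0741), without the second SMN1-labelled library (0.0519) or with DESeq2 (0.109), with a range of 2.17e-07 to 0.109 over the alternatives. After the length and GC correction its fold was larger (log2 difference 0.40, adjusted p = 2.17e-07), whereas TMED5 was no longer called (log2 difference 0.065, adjusted p = 0.545). TMED1 read 15.9, 16.7 and 16.8 CPM against 13.4, 12.6 and 13.6 and fell (log2 difference -0.32, edgeR adjusted p = 0.000144), with the sign turned after that correction (log2 difference 0.011, adjusted p = 0.897). TMED1 lies on the strand opposite DNM2, at 128 CPM with the control plasmid and 136 under the SMN1 label. TMED3 read 53.1, 51.7 and 51.4 CPM against 49.2, 45.8 and 44.5 and fell 1.12-fold (log2 difference -0.16, edgeR adjusted p = 0.00272), a call not made on FPKM values (adjusted p up to 0.416). TMED4 (95.2, 95.4 and 91.0 CPM against 94.4, 90.9 and 87.1) did not pass (log2 difference -0.048, edgeR adjusted p = 0.308). TMED2 and TMED9 were the most abundant of the family per length (62.1 ± 2.38 and 63.9 ± 4.55 FPKM in the control libraries). The summed level of the family, on FPKM as deposited, was 171 ± 1.20 FPKM in controls and 218 ± 3.93 FPKM under the SMN1 label, without overlap.

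The 2 genes of the LMAN1-MCFD2 cargo receptor had the most marked changes among the other receptors. LMAN1 (ERGIC-53), a mannose-binding lectin, and MCFD2, its calcium-binding partner, together carry coagulation factors V and VIII out of the ER, and loss of either causes a combined deficiency of both factors. LMAN1 (chromosome 18, 59327823 to 59359962) stood at 17.7, 20.3 and 18.1 CPM with the control plasmid and at 28.7, 29.2 and 31.6 CPM under the SMN1 label, a rise of 1.59-fold (log2 difference 0.67 with SE 0.059, edgeR adjusted p = 1.17e-09). MCFD2 (chromosome 2, 46901870 to 46941855) stood at 64.7, 68.2 and 67.4 CPM with the control plasmid and at 97.9, 104 and 104 CPM under the SMN1 label, a rise of 1.53-fold (log2 difference 0.61 with SE 0.039, edgeR adjusted p = 5.53e-12). In both genes all SMN1-labelled libraries lay above all control libraries, and both were still called higher after the length and GC correction (log2 fold changes 0.39 and 0.41, adjusted p = 3.06e-06 and 3.35e-09). MCFD2 overlaps TTC7A on the opposite strand, at 14.4 CPM with the control plasmid and 17.2 under the SMN1 label.

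The related lectin gene LMAN2 (VIP36) read 228, 233 and 222 CPM against 208, 199 and 204 and fell 1.12-fold without overlap (log2 difference -0.16, edgeR adjusted p = 0.000318). Its direction depended on the correction for length and GC content, after which it was called higher (log2 difference 0.11, adjusted p = 0.0108), and on FPKM values it was not called (limma adjusted p = 0.0887 on log2(FPKM + 0.1)). At 95.9 ± 3.42 FPKM in the control libraries against 2.82 ± 0.228 FPKM for LMAN1, it was the more abundant lectin per length. SURF4, a multispanning receptor for soluble cargo, read 77.9, 75.0 and 72.6 CPM against 82.0, 81.2 and 82.5 and rose 1.09-fold (log2 difference 0.12, edgeR adjusted p = 0.00833). That call was not made without the third control library (adjusted p = 0.051), with a range of 2.25e-06 to 0.051 over the alternatives. Of the 3 ERGIC genes, which encode membrane proteins that cycle between ER and Golgi, ERGIC2 rose (8.62, 8.42 and 8.55 CPM against 9.50, 11.0 and 11.8, log2 difference 0.33, edgeR adjusted p = 0.00161). ERGIC3 fell (196, 196 and 187 CPM against 181, 177 and 183, log2 difference -0.099, edgeR adjusted p = 0.018) and ERGIC1 did not pass (75.4, 78.9 and 74.0 CPM against 75.6, 78.1 and 83.0, log2 difference 0.051, edgeR adjusted p = 0.302), apart from a call on log2(FPKM + 0.1) (adjusted p = 0.0498). The ERGIC2 call was not made after the length and GC correction (log2 difference 0.10, adjusted p = 0.313). That of ERGIC3 was not made without control library 1 or 2 (adjusted p = 0.086 and 0.0762), without the second SMN1-labelled library (0.0931), without a filter on low counts (0.115) or on FPKM values (up to 0.86), with a range of 0.000324 to 0.86 over the alternatives.

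The KDEL receptors, which bind the C-terminal retrieval signal of soluble ER proteins such as BiP and return them by COPI vesicles, included 1 gene of 3 that fell and none that rose. KDELR1 read 66.9, 63.9 and 67.9 CPM against 62.0, 60.1 and 59.0 and fell 1.10-fold without overlap (log2 difference -0.13, edgeR adjusted p = 0.0064), with its sign turned after the length and GC correction (log2 difference 0.083, adjusted p = 0.0678) and no call on FPKM values. KDELR2 read 44.5, 42.1 and 40.6 CPM against 43.0, 45.9 and 47.2 and did not pass (log2 difference 0.098, edgeR adjusted p = 0.0754). It was called higher without the first control library (adjusted p = 0.0373), without the first SMN1-labelled library (0.0173), without a filter (0.0448) and on log2(FPKM + 0.1) (0.0169), with a range of 0.0165 to 0.831 over the alternatives. KDELR3 was close to the detection limit. Its reads numbered 2, 22 and 15 in the control and 13, 12 and 8 in the SMN1-labelled libraries (log2 difference -0.50, edgeR adjusted p = 0.371), and it lies opposite the abundant gene DDX17 (133 CPM with the control plasmid and 159 under the SMN1 label). Without the first control library it was called lower (-1.01, adjusted p = 0.0273). The summed KDEL receptor level per length, on FPKM as deposited, was 37.0 ± 0.750 FPKM in controls and 37.5 ± 0.0551 FPKM under the SMN1 label.

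**Figure D4:**
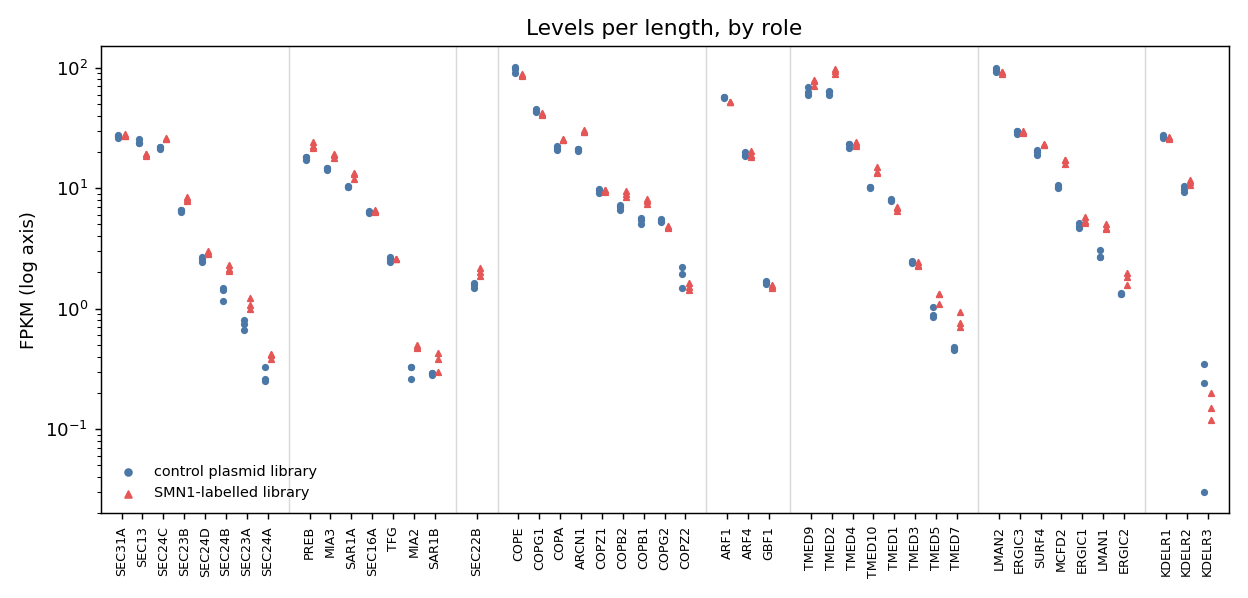
FPKM of each coat and cargo gene in each library on a log axis, grouped by role and ordered by the control mean, with control plasmid libraries as circles and SMN1-labelled libraries as triangles. COPE and LMAN2 have the highest control levels, the p24 receptors span from TMED9 down to TMED7, and KDELR3 lies far below the other KDEL receptors.

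For 7 pairs of related genes the log2 ratio of reads within a library was compared between groups, which removes library size from the comparison. The exact permutation test, two-sided, of 3 against 3 cannot go below p = 0.1, so no pair could pass, and p-values were adjusted over 7 pairs. The groups did not overlap for 3 pairs. The ratio of SEC23A to SEC23B was -2.33, -2.09 and -2.05 with the control plasmid and -1.88, -2.04 and -1.79 under the SMN1 label, a difference of 0.25 (exact p = 0.1, adjusted p = 0.233). The mean ratio was 1.19-fold higher under the SMN1 label. For KDELR2 to KDELR1 the ratio was -0.59, -0.60 and -0.74 with the control plasmid and -0.53, -0.39 and -0.32 under the SMN1 label, a difference of 0.23. For ARF4 to ARF1 it was -1.94, -1.94 and -1.87 with the control plasmid and -1.84, -1.82 and -1.67 under the SMN1 label, a difference of 0.14. Both had the same exact p and adjusted p as the SEC23 pair, and both differences changed sign after the length and GC correction (-0.097 and -0.12), while that of the SEC23 pair was 0.063 after it. The other 4 pairs overlapped. Their differences were -0.15 for SEC24A to SEC24B, -0.062 for SEC24D to SEC24C, -0.046 for SAR1A to SAR1B and -0.083 for COPG2 to COPG1 (exact p from 0.3 to 1). After the correction these 4 were, in the same order, -0.23, -0.27, 0.0016 and -0.26. Without the first control library the SEC24A to SEC24B difference was 0.087, and without the first or the third SMN1-labelled library the SAR1 difference was 0.033 or 0.038.

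**Figure D5:**
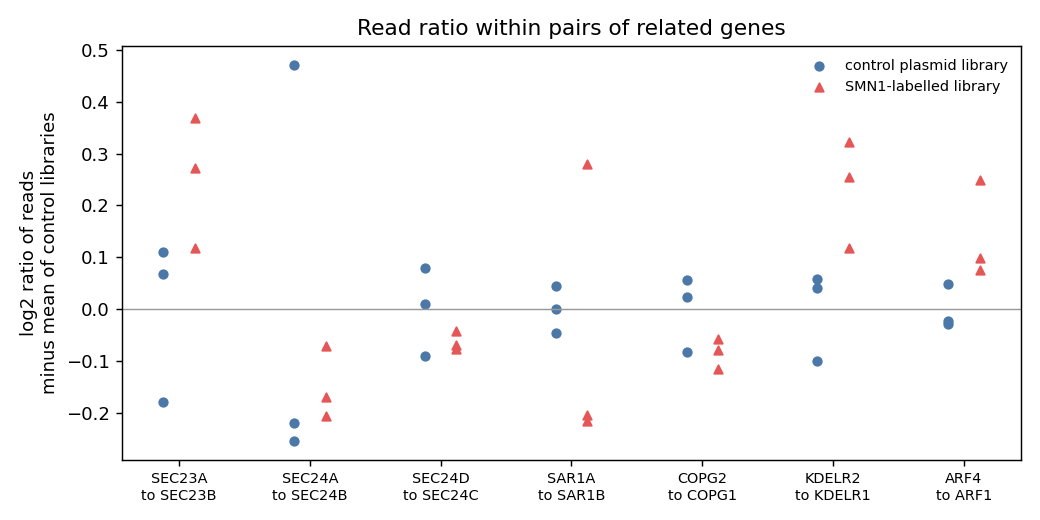
Log2 ratio of the reads of 2 related genes in each library, minus the mean ratio of the 3 control libraries, for 7 pairs. Circles are control plasmid libraries and triangles SMN1-labelled libraries, which lie wholly above the controls for SEC23A to SEC23B, KDELR2 to KDELR1 and ARF4 to ARF1.

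Promoters were read from RefSeq on GRCh38.p14 as the 250 bases before and 50 bases after each annotated start, and 39 of the 46 genes matched an entry (all but ARF4, ERGIC1, KDELR2, MIA2, SEC24D, TMED4 and TMED9). They were searched for letters tied to the ER stress response on both strands: TGACGTGG and TGACGTGA, cores of the element bound by ATF6 and XBP1, the cyclic AMP element TGACGTCA and the longer ER stress response element. The rule first set out covered the 4 called genes with the largest change, TMED7, LMAN1, MCFD2 and SEC24B, where none was found, and the search over all the coat and cargo genes was added beyond that rule. The shorter motifs share their first 6 letters and differ in the last 2. Counting a gene where any of its listed starts had a match, TGACGTGG was found for 9 of 39 genes (23.1%), against 129 of 10995 tested genes with an entry (1.17%). Single promoters of the whole table held TGACGTGG in 0.729%, TGACGTGA in 0.45%, TGACGTCA in 1.85% and the longer element in 0.0769% of 35116, and none of these last 3 was found for a coat or cargo gene. Each match is shown with 11 bases on either side, from 5′ to 3′ on the strand of the gene, so that the shared letters and their differing surroundings can be compared; capitals mark TGACGTGG or its reverse complement CCACGTCA.
ARF1, chr1:228082681-228082710, plus strand: cccggaggcgcTGACGTGGccgccgtcaga
COPA, chr1:160343227-160343256, minus strand: gagagggtcgcTGACGTGGaggcgtccgaa
COPB1, chr11:14499841-14499870, minus strand: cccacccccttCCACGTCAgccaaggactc
COPB2 upstream match, chr3:139389825-139389854, minus strand: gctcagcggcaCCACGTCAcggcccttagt
COPB2 match at the start, chr3:139389632-139389661, minus strand: tcccggaagttCCACGTCAgtcagtctgac
GBF1, chr10:102245526-102245555, plus strand: gaggctagttaCCACGTCAgtgagctgaca
KDELR3, chr22:38468039-38468068, plus strand: ggccgccctggCCACGTCAccgcccggcca
SEC16A, chr9:136484707-136484736, minus strand: tggccctggtgCCACGTCAgccggactgaa
SEC23A, chr14:39103221-39103250, minus strand: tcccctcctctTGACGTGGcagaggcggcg
SEC24A, chr5:134648595-134648624, plus strand: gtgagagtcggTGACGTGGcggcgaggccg
Counted from the start used for each line, the first base of a match lay between position -196 and position 16, and COPB2 held 2 matches. They belonged to 3 COPI subunits (COPA, COPB1 and COPB2), both COPI regulators with an entry (ARF1 and GBF1), the inner COPII subunits SEC23A and SEC24A, SEC16A and KDELR3, and to no p24, LMAN or ERGIC gene with an entry. Of these 9 genes 5 rose, 2 fell and 2 did not pass, and the median log2 difference was 0.13. Of the 30 others with an entry 16 rose, 10 fell and 4 did not pass, with a median of 0.19. After the length and GC correction 1 of the 9 genes with a match was higher and 1 lower. Of the 30 others 12 were then higher and 8 lower. In the other lists TGACGTGG was found for 3 of 45 tether and SNARE genes, 2 of 39 further adaptor and regulator genes and 0 of 25 post-Golgi coat genes. It was found for 1 of the 22 sensors, transcription factors and chaperones tied to secretory pathway genes that are described below.

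The 250 bases before the start of LMAN1 and before the first of 3 listed starts of MCFD2 are shown because these partner genes rose together. They differ in composition, with 76.8% and 57.2% GC.
LMAN1, chr18:59359266-59359515, minus strand: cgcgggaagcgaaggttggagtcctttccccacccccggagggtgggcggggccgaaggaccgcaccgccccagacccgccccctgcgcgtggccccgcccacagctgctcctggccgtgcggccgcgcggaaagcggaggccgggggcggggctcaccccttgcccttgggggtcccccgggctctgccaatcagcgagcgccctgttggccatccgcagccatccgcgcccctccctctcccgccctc
MCFD2, chr2:46916113-46916362, minus strand: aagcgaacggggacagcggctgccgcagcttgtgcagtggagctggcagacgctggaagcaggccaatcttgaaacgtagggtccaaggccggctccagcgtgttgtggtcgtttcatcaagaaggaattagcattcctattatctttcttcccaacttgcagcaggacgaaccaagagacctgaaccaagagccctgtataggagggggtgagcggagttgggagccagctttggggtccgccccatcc

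Among the tethers and SNAREs that receive ER-Golgi vesicles, 22 of 53 genes rose, 10 fell and 21 did not pass, and the median log2 difference was 0.11. In all 60.4% of the list were called, against 56.2% of all genes tested, and at 10 CPM or more 10 of 36 rose and 10 fell (27.8% and 27.8%, against 34.2% and 36.9% of all such genes). After the length and GC correction 13 were higher and 12 lower. USO1, the tether p115, rose 1.41-fold (26.8 ± 1.06 to 37.7 ± 1.44 CPM), the Golgi Rab gene RAB6A 1.30-fold (82.3 ± 4.47 to 107 ± 0.365 CPM) and the Golgi tether subunit COG5 1.50-fold (9.42 ± 0.789 to 14.1 ± 0.432 CPM). The retrograde SNARE gene USE1 fell 1.64-fold (52.9 ± 2.19 to 32.3 ± 0.882 CPM), NAPA, which helps NSF take SNAREs apart, 1.38-fold (38.4 ± 1.87 to 27.8 ± 1.17 CPM) and the tether subunit TRAPPC2L 1.47-fold (16.8 ± 0.548 to 11.4 ± 1.48 CPM). USE1 had the smallest edgeR adjusted p of the 6 (3.54e-12) and TRAPPC2L the largest (1.74e-06), and no groups overlapped.

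Of the further cargo adaptors and coat regulators 20 of 41 tested genes were higher and 10 lower (48.8% and 24.4%, against 28.0% and 28.2% of all genes tested), with 15 and 5 after the length and GC correction. At 10 CPM or more 12 of 27 rose and 8 fell (44.4% and 29.6%, against 34.2% and 36.9% of all such genes). These shares, and the median log2 difference of 0.11, were near those of the coat and cargo genes (44.4%, 30.6% and 0.13). YIPF5, a membrane protein of ER exit sites and the early Golgi, rose 1.44-fold (23.4 ± 2.01 to 33.7 ± 1.29 CPM), GOLPH3L 1.39-fold (18.2 ± 0.801 to 25.4 ± 1.46 CPM) and SEC23IP, which encodes a SEC23-binding protein, 1.28-fold (28.2 ± 0.864 to 36.0 ± 0.872 CPM). ARF5 fell 1.37-fold (55.8 ± 0.335 to 40.9 ± 0.999 CPM) and BCAP31, an ER cargo adaptor, 1.17-fold (332 ± 10.7 to 283 ± 2.50 CPM). Of these 5 genes ARF5 had the smallest edgeR adjusted p (1.77e-09) and BCAP31 the largest (4.35e-06), and SEC23IP and BCAP31 were not called after the correction (adjusted p = 0.0878 and 0.502).

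Of the 22 sensors, transcription factors and chaperones tied to secretory pathway genes, 16 rose and 5 fell (72.7% and 22.7%, against 28.0% and 28.2% of all genes tested). After the length and GC correction 16 were higher and 3 lower, among them 15 of those that rose. ATF6 and ATF6B were then not called, and CREB3, named like them after its values were seen, turned from lower (-0.12, edgeR adjusted p = 0.0143) to higher (log2 difference 0.14, adjusted p = 0.00313). The median log2 fold change was 0.35, above the 0.13 of the coat and cargo genes. Its chaperone genes overlap with a group known from earlier results of these data to be higher, so their direction is not independent evidence. HSP90B1, CANX and HSPA5 were the called genes with the smallest p, at 1.73-, 1.64- and 1.53-fold higher (edgeR adjusted p = 2.38e-15, 1.86e-14 and 3.72e-13). ATF4, a regulator of the integrated stress response, fell 1.43-fold (log2 difference -0.52, edgeR adjusted p = 8.37e-12). CREB3L1 (OASIS), a membrane-bound factor that in secretory cells raises coat genes such as SEC23A and SEC24D, fell 3.93-fold, from 2.75 ± 0.187 to 0.700 ± 0.0757 CPM (log2 difference -1.98, edgeR adjusted p = 3.54e-09), and its relative CREB3L4 1.47-fold, from 8.79 ± 0.267 to 5.97 ± 0.189 CPM (log2 difference -0.56, edgeR adjusted p = 6.09e-06). Another relative, CREB3L2 (BBF2H7), was 1.33-fold higher (36.0 ± 0.787 to 47.9 ± 2.77 CPM, log2 difference 0.41, edgeR adjusted p = 6.84e-08) and was named after its value was seen.

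The clathrin and adaptor coats that act after the Golgi were taken as another group of vesicle coats, beside the further adaptors above. Of 29 genes 11 rose and 8 fell, and the median log2 difference was 0.021. Calls took in 65.5% of the list (68.0% at 10 CPM or more), near the shares over all genes (56.2% and 71.1%). After the length and GC correction 6 were higher and 7 lower. The heavy chain gene CLTC rose 1.24-fold (117 ± 1.72 to 145 ± 7.69 CPM), a call not made after the correction (adjusted p = 0.329), and the light chain gene CLTB fell 1.38-fold (263 ± 8.01 to 190.4 ± 9.16 CPM). The AP-3 subunit genes AP3B1 and AP3M1 rose 1.36- and 1.43-fold, and the small subunit genes AP2S1 and AP1S1 fell 1.44- and 1.28-fold, with edgeR adjusted p up to 4.47e-07 over these 6. Whether these coats and the ER-Golgi coats differed from each other was not tested.

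Reads of some genes may be shared with a neighbour. Exons of 25 of the 46 genes overlap an annotated gene outside the 46, 7 of them on the same strand, and for 12 the other gene's control level was over 5% of the coat or cargo gene's own. Overlaps among the 46 themselves were not counted, and the spans of SEC24A and SAR1B overlap on chromosome 5. Among those named above, COPE overlaps AC002985.1 on the same strand (16.5 CPM with the control plasmid and 11.5 under the SMN1 label), COPB1 overlaps AC018523.2 (7.34 CPM with the control plasmid and 6.53 under the SMN1 label) and COPA lies opposite NCSTN (46.9 CPM with the control plasmid and 40.0 under the SMN1 label). KDELR2 overlaps DAGLB on the same strand (19.9 CPM with the control plasmid and 21.2 under the SMN1 label). On opposite strands, TMED5 overlaps CCDC18 (8.43 CPM with the control plasmid and 6.04 under the SMN1 label) and COPB2 overlaps MRPS22 (32.6 and 31.6 CPM). The library kit kept strand, but no source used here says whether counting did. For 7 genes, among them SAR1A, ARF1, ARF4 and TMED10, the annotation lists a pseudogene named after them, none of them above 0.5 CPM where listed.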

How the data were processed

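The 6 libraries were made from total RNA with a stranded mRNA kit and sequenced as paired reads, per the labels' protocols. The build was GRCh38 and the tools named are HISAT2 and DESeq2, without versions, per the submitters' processing notes. Which annotation, counter and strand setting were used is not given here by any source. The authors deposited a table of raw read counts per gene and a table of FPKM values, rounded to 2 decimals, per the file headers and values. Columns were matched to samples by title.

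Counts were tested with edgeR 4.0.16 in R 4.3.3: filterByExpr, TMM factors, a quasi-likelihood fit with group as the only term, two-sided, Benjamini-Hochberg adjustment over all genes tested, with an adjusted p up to 0.05 called. An SE is the log2 difference divided by the root of its F statistic. Lists are described by counts and medians, with no set test. The genes, lists and rules were chosen with earlier results of these data known. The rule for named genes takes all coat and cargo genes and, from each other list, up to 3 called genes in each direction in order of p; 1 such gene is not reported here. Gene lengths (joined exons), GC content (longest transcript) and coordinates came from GENCODE v29 on GRCh38. The length and GC correction removed natural splines with 5 degrees of freedom for each property from each library, as offsets. In paralog ratios 0.5 reads were added to each gene. Promoters were to be searched for the 4 called genes with the largest change only, and the search over all was added. Protein sequences, which the rule also named, were not used here.

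Alternatives were DESeq2 1.42.0, limma-voom (limma 3.58.1), DESeq2 size factors, upper-quartile factors, no filter, a filter of 1 CPM in at least 3 libraries, a limit of 25% on the size of a difference, leaving out each library in turn, a block for the replicate number, and limma on FPKM values on a log2 scale, with 0.1 or 1 added and genes under 0.5 FPKM in both group means dropped, the second also unfiltered. Adding a pseudocount, as in log2(value + pseudocount), understates changes of low genes. On counts simulated for 15651 genes of this comparison, 91.0% of genes changed 1.5-fold and all changed 2- or 4-fold were recovered, and 13 of 15451 unchanged genes were called. These simulated counts held no trend with GC content and few changed genes, whereas 56.2% of all genes tested were called in the data. The rates therefore do not measure how often genes were falsely called here.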

Additional observations from a re-analysis of the deposited data

How the results depend on the processing

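Of the 35 called coat and cargo genes 14 kept direction and call under every alternative in which they were tested, leaving the 25% limit aside. Under those on counts without the length and GC correction, again leaving that limit aside, 30 did so. SEC24C (1.11-fold) and SEC23B (1.18-fold) are among the 14 and do not reach the limit. The counts of 23 higher and 12 lower genes were 21 to 24 and 10 to 13 when 1 library was left out. They were 15 and 10 after the length and GC correction, alone or with the replicate block, and 13 and 3 when a difference of at least 25% of the lower group's level was required. On log2(FPKM + 0.1) and log2(FPKM + 1) 6 were lower, and 5 unfiltered. Replicate numbers did not pair the libraries (correlations of same-numbered deviations 0.003 to 0.013, and not every library correlated best with its own number). With the replicate block 23 were higher and 12 lower, with no call changed.

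Tethers and SNAREs that were higher numbered 13 after the correction, 12 with the replicate block as well and 11 with the 25% limit, where 4 were lower. For further adaptors 13 were higher with the 25% limit, and the lower ones numbered 4 with that limit, 5 on either FPKM scale with the filter, 4 unfiltered and 5 after the correction, with or without the block. Post-Golgi coats had 6 higher after the correction with or without the block, 3 higher and 3 lower with the limit, and 5 lower on unfiltered log2(FPKM + 1). Of the sensors and factors 3 were lower after the correction, with or without the block, and with the limit.

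Signs of log2 fold changes turned after the correction, alone and with the replicate block, for SEC24D (-0.095 and -0.096), SAR1A (-0.014 and -0.014), SAR1B (-0.012 and -0.011), MIA3 (-0.012 and -0.012), COPA (-0.038 and -0.038), COPB2 (-0.0082 and -0.0082), COPE (0.019 and 0.020), TMED1 (0.011 and 0.012), LMAN2 (0.11 and 0.11), KDELR1 (0.083 and 0.083) and KDELR2 (-0.015 and -0.014). They turned on log2(FPKM + 0.1) and on log2(FPKM + 1), filtered or not, for SEC31A (0.029 and 0.029), SEC16A (0.018 and 0.016), TFG (0.014 and 0.010), ARF4 (0.0082 and 0.0079) and TMED4 (0.040 and 0.039), none of them called, and for KDELR3 when 1 library was left out (-1.01 without the first control library to 0.085 without the second). The ratio differences turned after the correction for KDELR2 to KDELR1 (-0.097), ARF4 to ARF1 (-0.12) and SAR1A to SAR1B (0.0016, and 0.040 on FPKM). Leaving out 1 library gave -0.21 to 0.038 for that pair and -0.27 to 0.087 for SEC24A to SEC24B. Over all genes the median log2 fold change also differed between scales, 0.087 on log2(FPKM + 0.1) against 0.00087 on counts. The cause of the sign changes was not tested. KDELR3, SEC24A, SAR1B, MIA2, COPZ2 and TMED7 were under 5 CPM in the control group, and of these TMED7 kept its call under every alternative run. MIA2 kept its call wherever it was tested, but it was under 0.5 FPKM in both group means and was not tested on filtered FPKM values.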

Other observations

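Low-level relatives of the described genes also differed between the groups, named here after their values were seen. SEC16B, a second SEC16 exit site gene, went from 0.223 ± 0.0694 to 0.717 ± 0.0385 CPM (log2 difference 1.66, edgeR adjusted p = 0.000175), above all controls in each SMN1-labelled library, while its abundant relative SEC16A did not pass. AP1S3, a small subunit of the AP-1 adaptor, was higher (from 0.826 ± 0.121 to 1.45 ± 0.0838 CPM, log2 difference 0.81, edgeR adjusted p = 0.00214). Among ER stress sensors EIF2AK3 (PERK) went from 17.0 ± 1.20 to 27.1 ± 0.639 CPM (log2 difference 0.68, edgeR adjusted p = 6.37e-10), ERN1 (IRE1) from 5.16 ± 0.652 to 6.88 ± 0.393 CPM (log2 difference 0.42, edgeR adjusted p = 0.00122) and ATF6 from 25.2 ± 1.34 to 31.1 ± 1.17 CPM (log2 difference 0.30, edgeR adjusted p = 2.59e-05), all higher, the last not called after the length and GC correction (log2 difference 0.032, adjusted p = 0.613).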
